A study of Mus musculus with 6 samples.

Results

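The genes described here encode matrix proteins, fibroblast and pericyte surface proteins and regulators of the mesenchymal state: Col1a1, Col3a1, Col4a1, Fn1, Thy1, Pdgfrb, Snai1 and Twist1. They were chosen by symbol, and all 8 were found among the 770 genes of the deposited table. The samples were primary tumours of mice in which 4NQO, a chemical carcinogen, had induced squamous cell carcinoma of the mouth, and RNA was taken from formalin-fixed, paraffin-embedded tissue. One group of mice had received an agonistic antibody to CD40 and the other vehicle, with 3 samples in each group (anti-CD40 1 to 3 and vehicle 1 to 3). All of them carried carcinogen-induced tumours, and the labels used here give no mouse strain name, age, sex, dose, time of sampling or vehicle composition. They do not state that the 3 samples of a group were separate animals, so p-values here reflect only how much these samples vary, and some of that variation may be technical.

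Fibroblasts build the interstitial matrix of a tumour from fibrillar collagens and fibronectin, while endothelial cells, pericytes and epithelium lay down basement membranes rich in type IV collagen. Signals through the receptor for platelet-derived growth factor and through TGF-beta drive fibroblasts to divide and to deposit matrix. Snai1 and Twist1 encode transcription factors that bind E-box motifs and are known for loosening epithelial cell contacts in carcinoma, in part through repression of the E-cadherin gene Cdh1, and both are also expressed in fibroblasts.

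No member passed the test between the groups. All 8 had a higher mean in anti-CD40 tumours, where 54.5% of all 770 genes did. The differences, anti-CD40 minus vehicle on the log2 scale, ran from 0.10 for Pdgfrb to 0.60 for Snai1, with a median of 0.23 over the members and 0.04 over all genes. Limma, a linear model fitted to all 770 genes with Benjamini-Hochberg adjustment, called 0 of 8 members and 0 of 770 genes (0.0%) at an adjusted p of 0.05, and every member had an adjusted p of 0.974. At an unadjusted p under 0.05 it called 25 genes (3.25%), none of them a member. Under the alternatives this count ran from 13 to 52. Snai1 was among them after quantile normalization and with anti-CD40 1 left out, and its unadjusted limma p lay between 0.0268 and 0.187 over the alternatives. For 3 members, Col3a1, Col4a1 and Snai1, every anti-CD40 value lay above every vehicle value. Groups did not overlap in either direction for 10.3% of all genes, and 6.75% were higher in anti-CD40 in this way. With 3 samples against 3 an exact permutation test cannot give a two-sided p under 0.1, and these 3 genes had that value.

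The promoter sequences of these 3 genes are shown because theirs were the only member groups that did not overlap in the deposited values. A further reason was that Snai1 and Twist1 proteins read E-boxes. RefSeq's promoter table (build GRCm38.p6) held 4 of the 8 members. The 250 bases before the annotated gene start are printed 5′ to 3′ on the gene's strand, with capitals for matches to the E-box CANNTG, the CCAAT box CCAAT and the TATA box TATAAA, searched on both strands.
Col3a1, chr1:45311288-45311537, plus strand: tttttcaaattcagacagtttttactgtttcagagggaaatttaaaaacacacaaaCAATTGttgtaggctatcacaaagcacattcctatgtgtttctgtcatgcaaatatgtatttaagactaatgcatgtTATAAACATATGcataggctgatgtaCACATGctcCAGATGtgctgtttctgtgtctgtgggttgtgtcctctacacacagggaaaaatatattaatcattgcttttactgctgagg
Col4a1, chr8:11312827-11313076, minus strand: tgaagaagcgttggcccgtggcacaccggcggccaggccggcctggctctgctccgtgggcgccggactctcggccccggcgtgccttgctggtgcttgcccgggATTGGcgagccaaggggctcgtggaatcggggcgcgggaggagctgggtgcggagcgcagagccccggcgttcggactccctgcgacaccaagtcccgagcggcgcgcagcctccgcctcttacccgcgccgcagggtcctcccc
Snai1, chr2:167537945-167538194, plus strand: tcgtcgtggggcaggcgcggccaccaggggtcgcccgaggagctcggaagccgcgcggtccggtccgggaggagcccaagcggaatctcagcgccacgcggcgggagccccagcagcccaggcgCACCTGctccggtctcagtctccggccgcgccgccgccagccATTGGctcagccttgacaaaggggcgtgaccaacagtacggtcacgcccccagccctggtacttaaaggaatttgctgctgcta

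The Col3a1 window was AT-rich, at 35.2% G and C, and held 4 E-box matches and 1 TATA box, which stands directly before 1 of the E-boxes. The Col4a1 and Snai1 windows were GC-rich, at 74.4% and 70.0%, beside a median of 52.4% over all windows. Each held 1 CCAAT box on the opposite strand, and Snai1 also held 1 E-box, CACCTG, whereas no E-box match was found in the Col4a1 window. Of the 32851 promoter windows in the table, 66.2% held an E-box, 33.8% a CCAAT box and 12.4% a TATA box. A match describes the letters of the window and does not show a bound site.

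Whole counts recovered from the deposited log2 values summed to 333400 to 497475 per anti-CD40 library and 357258 to 578598 per vehicle library. Background was set per library at the mean of 8 negative controls plus 2 SD. By this limit 523 genes were above background in all 6 libraries, among them 7 of the 8 members, and Snai1 was above it in 5. No pair of replicates looked like 1 library deposited again: the chi-square between them was 64.2 to 121 per degree of freedom. Vehicle 3 stood low for many genes: it gave the lowest value of the 6 libraries for 43.8% of the 523 genes, and had the lowest median. Of 9 squamous epithelial markers listed, 4 were measured, of which Cdh1, Epcam and Egfr were above background in every library and Muc1 in 5. Of 9 markers of skeletal muscle, nerve and adipose tissue, only Ncam1 was measured, so this admixture was not tested. In RNA of whole tumours, fewer cells of a type and less RNA per cell cannot be told apart.

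**Figure D1:**
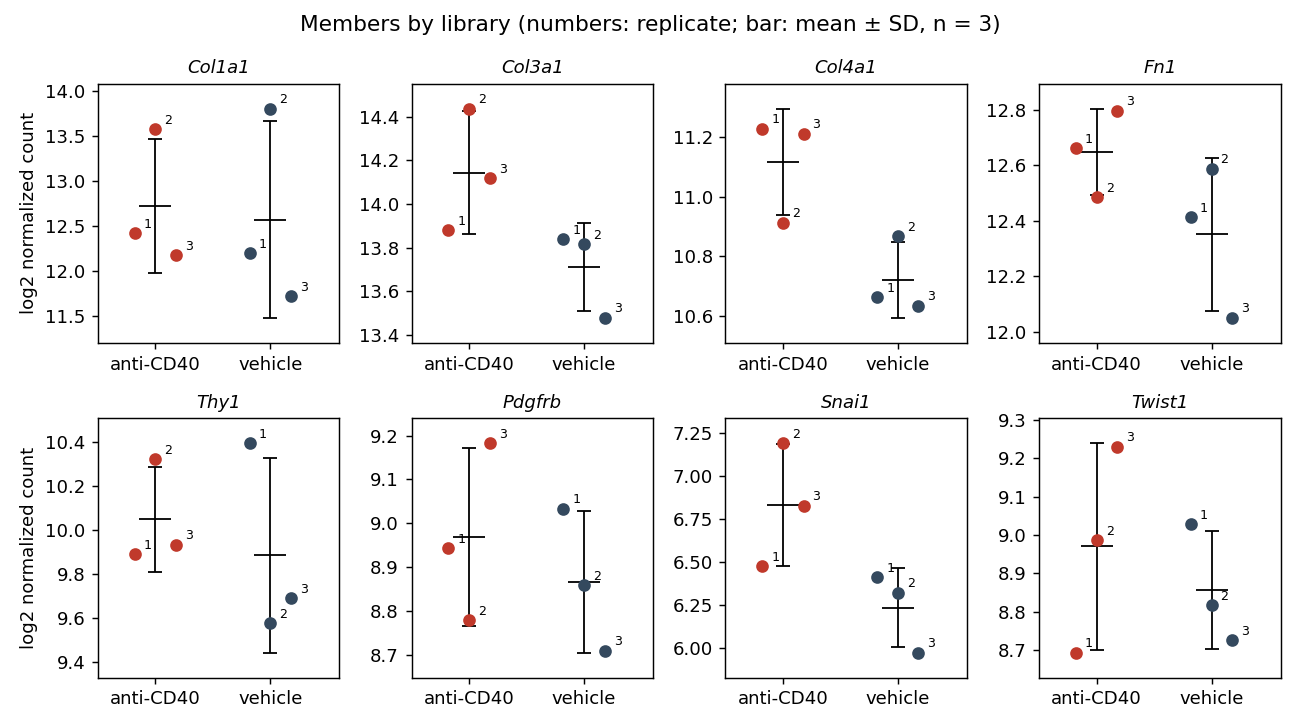
Log2 normalized counts (y axis) of the 8 members in 3 anti-CD40 and 3 vehicle libraries, 1 panel per gene with its own y range; points are libraries with their replicate number and bars give mean ± SD. Groups are apart in the panels of Col3a1, Col4a1 and Snai1, and Col1a1 has 1 high library in each group, anti-CD40 2 at 13.57 and vehicle 2 at 13.80.

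Among the matrix genes, Col3a1 encodes the chain of type III collagen, a fibrillar collagen of loose connective tissue and healing wounds. Its log2 normalized counts were 13.88, 14.44 and 14.12 in anti-CD40 libraries 1, 2 and 3, against 13.84, 13.82 and 13.48 in vehicle libraries 1, 2 and 3. The groups were separated by 0.04, the distance from anti-CD40 1 to vehicle 1, which is narrower than the spread inside either group. The means were 14.14 ± 0.28 in anti-CD40 and 13.71 ± 0.20 in vehicle tumours (SD, n = 3 each), a difference of 0.43 (SE 0.24) or 1.35-fold, with a 95% confidence interval from −0.14 to 1.005. The difference was 0.29 without anti-CD40 2, over 1.5 times smaller, and 0.56 without anti-CD40 1.

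Col4a1 encodes a chain of type IV collagen, the network-forming collagen of basement membranes. It measured 11.23, 10.91 and 11.21 in the anti-CD40 libraries, against 10.66, 10.87 and 10.63 in the vehicle libraries. Anti-CD40 2 and vehicle 2 almost met, 0.04 apart, while the remaining libraries of the groups lay well apart. The means were 11.12 ± 0.18 in anti-CD40 and 10.72 ± 0.13 in vehicle tumours, a difference of 0.40 (SE 0.22) or 1.32-fold, with an interval from −0.11 to 0.90. With any 1 library left out, the difference stayed between 0.34 and 0.50, the narrowest such range of the 8 members.

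Fn1 encodes fibronectin, a glycoprotein that links cells to collagen and is made by fibroblasts, endothelial cells and macrophages. Its values were 12.66, 12.49 and 12.80 in the anti-CD40 libraries, against 12.41, 12.59 and 12.05 in the vehicle libraries. The groups overlapped through anti-CD40 2 and vehicle 2, and vehicle 3 was the lowest library. The difference was 0.30 (SE 0.24), with an interval from −0.26 to 0.85, and it was 0.15 without vehicle 3.

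Col1a1 encodes the main chain of type I collagen, the most abundant fibrillar collagen of connective tissue. It measured 12.41, 13.57 and 12.17 in the anti-CD40 libraries, against 12.19, 13.80 and 11.71 in the vehicle libraries. A single library of each group, anti-CD40 2 and vehicle 2, was high, and the 4 others lay between 11.71 and 12.41. The same 2 libraries had the highest recovered counts, 4973 in anti-CD40 2 and 4338 in vehicle 2, beside 1644 to 2546 in the 4 others. The means were 12.72 ± 0.75 in anti-CD40 and 12.57 ± 1.09 in vehicle tumours, so that the difference of 0.15 (SE 0.60) had an interval from −1.25 to 1.54. Without vehicle 2 the difference was 0.76. It turned negative when anti-CD40 2 was left out (−0.28), when vehicle 3 was (−0.28) and when vehicle 1 was (−0.04). Leaving out anti-CD40 1 gave 0.30 and anti-CD40 3 gave 0.42.

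**Figure D2:**
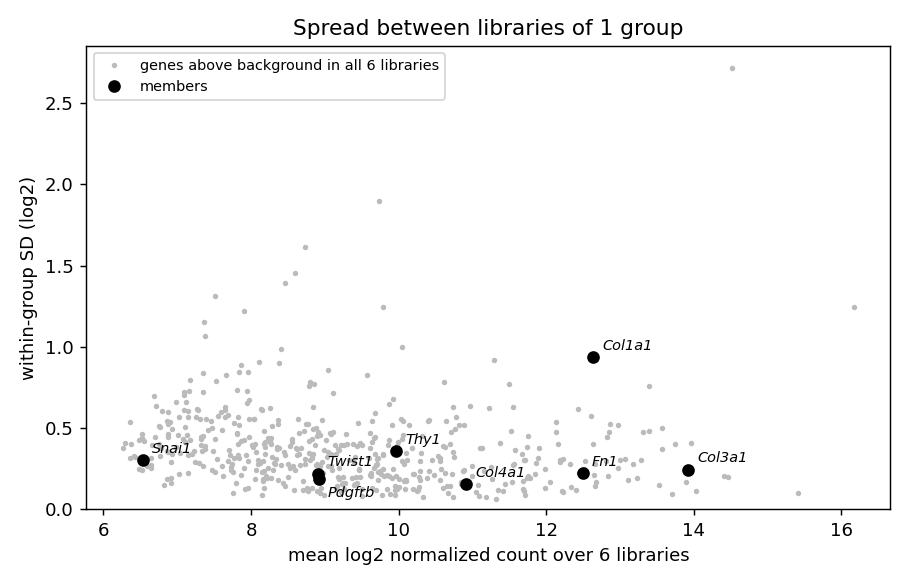
Within-group SD in log2 units (y axis) against the mean log2 normalized count over 6 libraries (x axis); grey points are the 523 genes above background in all 6 libraries and black points the 8 members. Col1a1 stands at 0.94, above the other 7 members, which lie between 0.15 and 0.36.

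The spread between libraries of a group was 0.94 log2 for Col1a1, larger than that of 97.3% of the 523 genes above background everywhere. For the other members it was 0.15 for Col4a1, 0.18 for Pdgfrb, 0.22 for both Fn1 and Twist1, 0.24 for Col3a1, 0.30 for Snai1 and 0.36 for Thy1, where the median over the 523 genes was 0.33. Of these 7, only Thy1 varied more between replicates than the median gene. The fibrillar collagens were high in partly different tumours: relative to its own mean over the 6 libraries, Col1a1 was 1.16 higher in vehicle 2, where Col3a1 deviated by −0.11. In anti-CD40 2 both were above their own means, by 0.93 and 0.51.

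Of the surface proteins, Thy1 encodes CD90, a glycoprotein of fibroblasts that in mice is also carried by T cells. It measured 9.89, 10.32 and 9.93 in the anti-CD40 libraries, against 10.39, 9.58 and 9.69 in the vehicle libraries. Vehicle 1 was the highest of all libraries and vehicle 2 the lowest, so the anti-CD40 values fell inside the range of the vehicle values. The difference was 0.16 (SE 0.29), with an interval from −0.52 to 0.84. Leaving out vehicle 1 gave 0.42, vehicle 2 gave 0.01, vehicle 3 gave 0.06, anti-CD40 1 gave 0.24 and anti-CD40 2 gave 0.03. All 9 T cell markers of the list were measured, and each had a lower mean in anti-CD40 tumours, where 54.5% of all genes had a higher one. Cd5 was the 1 marker with groups that did not overlap, at a difference of −0.83 (SE 0.23) and a limma adjusted p of 0.974. Of all genes, 3.51% were lower in anti-CD40 in this way. The summed level of the 9 markers was 595, 1101 and 755 normalized counts in anti-CD40 libraries, against 1244, 1083 and 902 in vehicle libraries. Cd2 was at or below background everywhere, and 4 of the 9 markers were above it in all 6 libraries. Their part in the Thy1 values was not tested.

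Pdgfrb encodes the beta receptor for platelet-derived growth factor, a tyrosine kinase of pericytes and fibroblasts. It had 8.94, 8.78 and 9.18 in the anti-CD40 libraries, against 9.03, 8.86 and 8.71 in the vehicle libraries. The groups overlapped, with anti-CD40 3 the highest library and vehicle 3 the lowest. The difference of 0.10 (SE 0.23) had an interval from −0.43 to 0.63, that is from 0.744-fold to 1.55-fold. Leaving out anti-CD40 3 gave −0.01, vehicle 3 gave 0.02, anti-CD40 2 gave 0.20 and vehicle 1 gave 0.18.

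Of the transcription factor genes, Snai1 showed the largest difference of the 8 members and the lowest counts. It measured 6.48, 7.19 and 6.83 in the anti-CD40 libraries, against 6.41, 6.32 and 5.98 in the vehicle libraries. The groups were 0.06 apart, with anti-CD40 2 the highest and vehicle 3 the lowest. The means were 6.83 ± 0.36 in anti-CD40 and 6.24 ± 0.23 in vehicle tumours, a difference of 0.60 (SE 0.27) or 1.51-fold, with an interval from −0.03 to 1.22 and an unadjusted limma p of 0.059. The recovered counts were 37, 58 and 39 in the anti-CD40 libraries, against 44, 23 and 34 in the vehicle libraries, before multiplication by the library factors. A count of 23 has a 95% Poisson interval from 14.6 to 34.5 and one of 58 from 44.0 to 75.0, which cover counting error only. Vehicle 2, with the count of 23, was the library in which Snai1 did not exceed background. The counts themselves thus overlap between the groups, and the gap appears once the factors, 2.29 to 2.80 in anti-CD40 and 1.72 to 3.28 in vehicle, are applied.

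Twist1, a basic helix-loop-helix factor of mesenchyme, had 8.69, 8.99 and 9.23 in the anti-CD40 libraries, against 9.03, 8.82 and 8.73 in the vehicle libraries. Anti-CD40 1 was the lowest of all libraries and anti-CD40 3 the highest. The difference was 0.11 (SE 0.24), with an interval from −0.44 to 0.67. Leaving out anti-CD40 3 gave −0.02, anti-CD40 1 gave 0.25, vehicle 1 gave 0.20 and vehicle 3 gave 0.05. The highest library was thus anti-CD40 2 for Snai1 and anti-CD40 3 for Twist1.

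**Figure D3:**
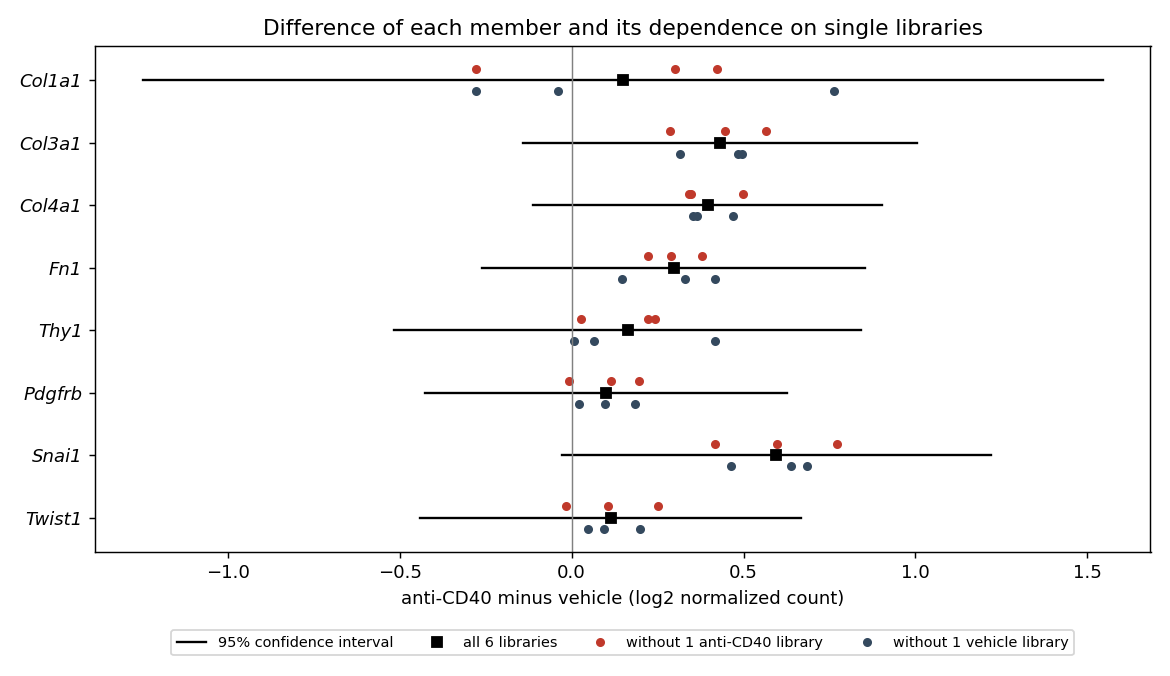
Difference of each member, anti-CD40 minus vehicle in log2 normalized counts (x axis), with all 6 libraries (square) and its 95% confidence interval (line), and with 1 library left out (red, an anti-CD40 library; dark, a vehicle library). Every interval includes 0; Col1a1 runs from −0.28 to 0.76 with 1 library left out, and Col4a1 from 0.34 to 0.50.

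Whether groups overlapped depended on the scaling for Col3a1, Col4a1, Snai1 and Fn1. With libraries centred on the 20 housekeeping genes, or quantile-normalized, 2 of 8 members had groups that did not overlap, Col4a1 and Snai1. Of all genes, 9.61% did so after this centring and 11.3% after quantile normalization. With recovered counts scaled to library totals by limma-voom, 1 of 8 members had groups without overlap. That was Fn1, beside 8.44% of all genes. Every member kept a higher mean in anti-CD40 tumours under these 3 scalings.

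Across the libraries, vehicle 3 gave the lowest value for 6 of the 8 members, the exceptions being Thy1, lowest in vehicle 2, and Twist1, lowest in anti-CD40 1. Of the 523 genes above background everywhere, vehicle 3 was lowest for 43.8%. After quantile normalization vehicle 3 was lowest for 3 of the 8 members and for 10.7% of the 523 genes. With libraries centred on housekeeping genes it was lowest for 6 of the 8 members and for 41.5% of the 523 genes. The mean deviation of the 8 members from their own means was −0.02, 0.29 and 0.14 in anti-CD40 libraries 1, 2 and 3, against −0.04, 0.04 and −0.42 in vehicle libraries 1, 2 and 3. Without vehicle 3, 7 of 8 members still had a higher mean in anti-CD40 tumours, with Col1a1 lower. The summed levels of endothelial and macrophage markers were also lowest in vehicle 3, and those of T cell and epithelial markers were not. The T cell markers summed to 902 there, against 595 in anti-CD40 1. The 8 measured endothelial markers, all above background everywhere, summed to 10061, 6466 and 8058 normalized counts in the anti-CD40 libraries, against 8566, 6756 and 5595 in the vehicle libraries, and 7 of 8 had a higher mean in anti-CD40. The 8 measured macrophage markers, 7 of them above background everywhere, summed to 4162, 4296 and 3811 in the anti-CD40 libraries, against 4019, 4117 and 2427 in the vehicle libraries, with 7 of 8 higher. The 4 epithelial markers summed to 7833, 7504 and 6768 in the anti-CD40 libraries, against 8359, 8857 and 9025 in the vehicle libraries, with 2 of 4 higher in the mean. That sum was highest in vehicle 3, but Egfr and Muc1 were at their lowest there, at 9.73 and 6.02 log2. None of these markers passed the test, and their part in the members' values was not tested.

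**Figure D4:**
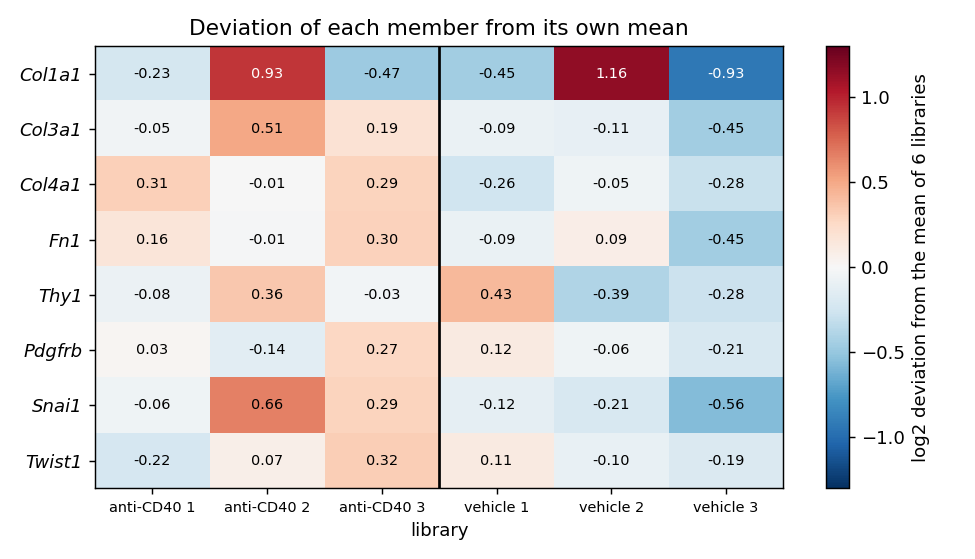
Deviation of each member (rows) in each library (columns) from its own mean over the 6 libraries, in log2 units, with anti-CD40 libraries left of the line and vehicle libraries right of it. All 8 members are below their mean in vehicle 3, and the largest deviations are those of Col1a1 in vehicle 2 (1.16), vehicle 3 (−0.93) and anti-CD40 2 (0.93).

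Patterns were compared as the root mean square (RMS) difference between profiles over the 6 libraries, each centred on its own mean, which describes these libraries and was not tested. Among the 28 pairs of members the closest were Col3a1 and Snai1 (RMS 0.10 log2), then Col4a1 and Fn1 (0.13) and Pdgfrb and Twist1 (0.14). All 7 pairs with Col1a1 were farther apart than any other pair, at 0.66 to 0.83. Profiles were not scaled, so this distance grows with a gene's spread and does not by itself show a different pattern. The SD over the 6 libraries was 0.84 for Col1a1, and from 0.17 for Pdgfrb to 0.42 for Snai1 among the other members. Among other genes above background in all libraries and of similar spread, Pdgfrb was nearest to Egfr, the epidermal growth factor receptor gene (0.03), and then to the kinase gene Fyn (0.08). Thy1 was nearest to Il2rg, which encodes the common gamma chain of cytokine receptors of lymphocytes (0.07), and to Sbno2 (0.08). Twist1 was nearest to the TNF receptor gene Tnfrsf1a (0.05) and to Nod1 (0.09). Col4a1 was nearest to the TGF-beta ligand gene Tgfb3 (0.09) and to Mapkapk2 (0.10), and Fn1 to Irak1 (0.10) and to the scavenger receptor gene Colec12 (0.11). Col3a1 was nearest to F13a1, the coagulation factor XIII A subunit gene that macrophages express, and to Irak3 (both 0.15). Snai1 was nearest to Rrad (0.14) and to the monocyte gene Cd14 (0.15). The nearest to Col1a1 were the lymphoid genes Ikzf1 (0.31) and Cd37 (0.33), at a median of 0.82 over its 74 candidates. Over the 6 libraries, vehicle 2 was highest for Ikzf1, at 8.21, and for Cd37, at 8.71, as it was for Col1a1.

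The other measured genes of the same pathways gave no calls either: limma called 0 genes in each of the 7 lists. For the counts that follow, 54.5% of all 770 genes had a higher mean in anti-CD40 tumours. In the matrix list, 6 of 19 genes were measured and 5 were higher in the mean, with a median difference of 0.35. Of the 6, 4 were members, and of the 2 other genes in this list 1 was higher and 1 lower. Besides the 4 members it held Thbs1, thrombospondin, at 11.03 ± 1.04 in anti-CD40 and 10.20 ± 0.40 in vehicle tumours, and Spp1, osteopontin, at 8.69 ± 1.46 and 8.77 ± 1.75. Spp1 varied widely inside both groups: it measured 9.47, 9.59 and 6.996 in the anti-CD40 libraries, against 9.17, 10.29 and 6.86 in the vehicle libraries. Replicate 3 of each group was thus low in Spp1. Of 3 measured genes of matrix turnover, 2 were higher and 1 lower. The urokinase gene Plau was 11.17 ± 0.96 in anti-CD40 and 11.81 ± 0.53 in vehicle tumours, its receptor gene Plaur 8.43 ± 0.25 and 8.11 ± 0.57, and the gelatinase gene Mmp9 7.61 ± 1.20 and 7.12 ± 1.10.

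The fibroblast and pericyte list includes Thy1 and Pdgfrb. Of 8 measured genes, 6 had the higher mean in anti-CD40 tumours and 2 the lower, at a median difference of 0.10. Of the 6 genes other than members, 4 were higher and 2 lower. The 2 genes with lower means were Cspg4 and Nt5e, the gene of the ecto-enzyme CD73. Nt5e and Fap, the fibroblast activation protein gene, were picked after their values were seen. Nt5e was 8.31 ± 0.35 in anti-CD40 and 8.45 ± 0.40 in vehicle tumours, and Fap 8.83 ± 0.29 and 8.73 ± 0.68. The intermediate filament gene Vim was 13.24 ± 0.17 in anti-CD40 and 13.22 ± 0.21 in vehicle tumours. The chemokine gene Cxcl12, a product of stromal cells, was 12.25 ± 0.24 in anti-CD40 and 12.02 ± 0.63 in vehicle tumours. Cspg4, which encodes the pericyte proteoglycan NG2, had groups that did not overlap in the direction opposite to the collagens, where 3.51% of all genes lay. It measured 9.35, 9.21 and 9.07 in the anti-CD40 libraries, against 9.48, 9.76 and 9.48 in the vehicle libraries, a difference of −0.36 (SE 0.22) with an adjusted p of 0.974 by limma. Mcam, which encodes CD146 of pericytes and endothelium, differed by 0.41 (SE 0.28), between 0.18 and 0.56 with 1 library left out, and its groups overlapped. The 2 pericyte genes Cspg4 and Mcam thus had differences of opposite sign.

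Among growth factor genes, 4 of 12 listed were measured and all 4 were higher in the mean, with a median of 0.12. The member Pdgfrb was 1 of these 4. Igf1r, the insulin-like growth factor receptor gene, had 10.44, 10.42 and 10.48 in the anti-CD40 libraries, against 10.07, 9.93 and 10.25 in the vehicle libraries. Its groups did not overlap, at a difference of 0.36 (SE 0.21), and 6.75% of all genes were higher in anti-CD40 in this way. Egfr differed by 0.12, between 0.0008 and 0.24 with 1 library left out. The ligand gene Pdgfc differed by 0.13, between −0.14 and 0.44.

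Of 5 measured genes of mesenchymal transition, 3 were higher and 2 lower, with a median difference of 0.02. Of the 3 that were not members, 1 was higher and 2 lower. Cdh1, the E-cadherin gene, had 12.01, 12.13 and 11.94 in the anti-CD40 libraries, against 12.51, 12.25 and 12.41 in the vehicle libraries. Its groups did not overlap either, in the direction opposite to Snai1, and 3.51% of all genes were lower in anti-CD40 in this way. The difference of −0.36 (SE 0.21) stayed between −0.43 and −0.30 with any 1 library left out. By limma the adjusted p of Cdh1 was 0.974. Cdh1 was also 1 of the epithelial markers, and a link between Snai1 and Cdh1 was not tested. Epcam, an epithelial adhesion gene, was 10.91 ± 0.49 in anti-CD40 and 11.03 ± 0.75 in vehicle tumours. Vim, described above, differed by 0.02.

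All 9 measured TGF-beta pathway genes were above background in every library. Of them 6 were higher and 3 lower, beside 54.5% of all genes higher, with a median difference of 0.22. The signal transducer gene Smad3 had 11.17, 10.37 and 11.08 in the anti-CD40 libraries, against 10.31, 10.31 and 10.11 in the vehicle libraries. Its groups did not overlap, with a difference of 0.63 (SE 0.27) and an adjusted p of 0.974 by limma, and anti-CD40 2 lay close to the vehicle libraries. The receptor gene Tgfbr1 had 10.43, 10.56 and 10.44 in the anti-CD40 libraries, against 10.12, 10.27 and 10.19 in the vehicle libraries. Its groups again did not overlap, at a difference of 0.28 (SE 0.20). Smad3 and Tgfbr1 were the 2 of 9 genes without overlap, where 6.75% of all genes were higher in anti-CD40 in this way. Of the 3 ligand genes, Tgfb3 was 10.15 ± 0.24 in anti-CD40 and 9.85 ± 0.10 in vehicle tumours, while Tgfb1 and Tgfb2, given to complete the ligands after their values were seen, differed by −0.03 and −0.05.

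The list of collagen and fibronectin receptors also holds the laminin receptor gene Itga6 and Cd44. Of its 8 measured genes, 4 were higher and 4 lower, these 2 among the lower, with a median of 0.00. A fibronectin receptor consists of the products of Itga5 and Itgb1, and for both genes the groups did not overlap. No other measured gene of this list had such groups, and 6.75% of all genes were higher in anti-CD40 in this way. Itga5 had 8.19, 8.08 and 8.22 in the anti-CD40 libraries, against 7.70, 7.77 and 7.23 in the vehicle libraries. Itgb1, chosen after its values were seen, had 13.04, 12.68 and 12.76 in the anti-CD40 libraries, against 12.67, 12.39 and 12.56 in the vehicle libraries, a difference of 0.29 (SE 0.22) that was 0.18 without anti-CD40 1. Itgb3 differed by 0.80 (SE 0.39), between 0.47 and 1.21 with 1 library left out. The laminin receptor gene Itga6 differed by −0.58 (SE 0.42), between −0.95 and −0.25, and the groups of both genes overlapped.

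**Figure D5:**
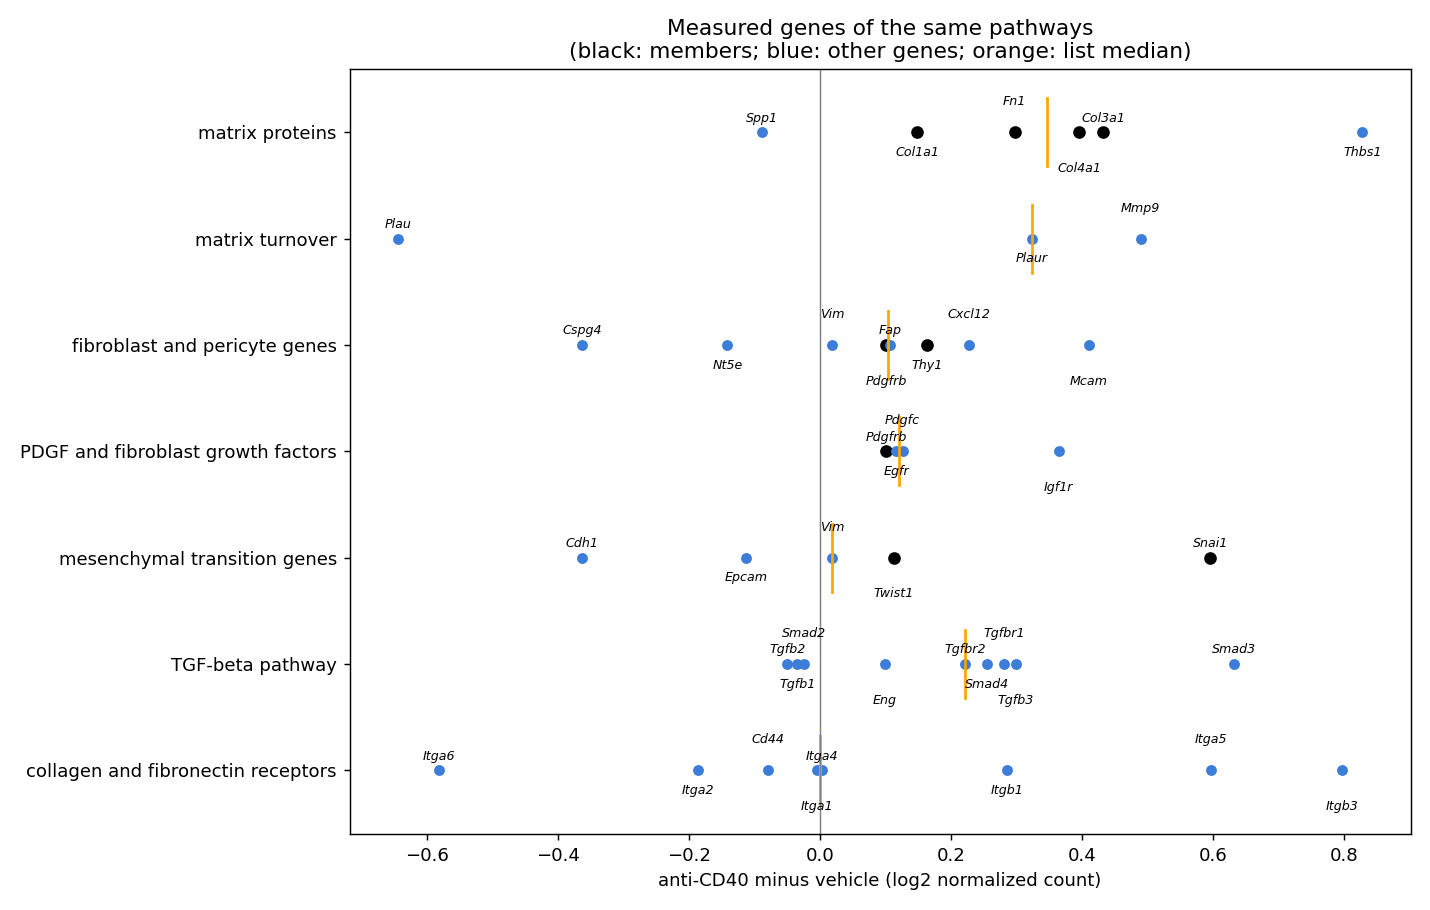
Difference of each measured gene in the 7 pathway lists, anti-CD40 minus vehicle in log2 normalized counts (x axis); black points are members, blue points other genes and orange bars list medians. The list median is largest for the matrix genes (0.35), of which 4 of 6 are members, and is 0.00 for the receptor list. None of the genes passed the test.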

How the data were processed

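The values are log2 normalized counts, deposited by the authors as 1 table for 6 samples, with 770 genes, 6 positive and 8 negative control rows. RNA came from fixed tumours, per the labels' protocols; no source used here names the platform, software, normalization rule or genome build. Each value was the log2 of a library factor (1.72 to 3.28) times a whole count, to which 4.55 had been added: all 4704 values came out whole within 0.05 counts. The offset understates differences of low genes. Groups were compared with limma 3.58.1 in R 4.3.3 (lmFit and eBayes, 4 residual and 3.37 prior degrees of freedom) on all 770 genes as deposited, in two-sided tests, Benjamini-Hochberg adjusted, threshold 0.05. The procedure was tested on simulated data with added changes larger than the difference of any member. That test does not show whether differences as small as those of the members would be called. Plots and counts used Python 3.11.15, pandas 2.3.3 and matplotlib 3.10.9. The members, lists and tests were chosen with earlier results of these data known. Named were all members, up to 3 other genes of lowest p per list, and the 2 genes nearest to each member among those whose SD over the 6 libraries was within 1.5 times the member's; genes outside this rule are marked as picked later. Alternatives were 2 scalings, 2 filters on background, a trended robust fit, log2(scaled count + 1), limma-voom, the replicate number as a block and leaving out each library.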

Additional observations from a re-analysis of the deposited data

How the results depend on the processing

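Limma called 0 genes and 0 members under all 14 alternatives. Of 111 member differences recomputed, 106 kept their direction, and limma's adjusted p lay between 0.666 and 0.997 over all 111. The 2 filters, the trended robust fit and the block leave a difference unchanged, so its direction could not turn under them. The 5 that turned negative each lacked 1 library: Col1a1 without anti-CD40 2 (−0.277), without vehicle 1 (−0.0395) and without vehicle 3 (−0.278), and Pdgfrb (−0.0066) and Twist1 (−0.0168) without anti-CD40 3. The highest values with 1 library left out were 0.764 for Col1a1, 0.195 for Pdgfrb and 0.251 for Twist1. With 1 library left out, 6 to 8 members were higher in the mean, 3 to 4 members had groups that did not overlap and so did 111 to 191 of all genes, where fewer samples make such gaps more frequent. Under limma-voom 1 member had groups that did not overlap, Fn1, where 8.44% of all genes did, and Col3a1, Col4a1 and Snai1 overlapped. The labels do not state whether replicate numbers pair the samples. Deviations from the group means correlated at −0.35, −0.03 and 0.18 between libraries of equal number, for numbers 1, 2 and 3. Between unequal numbers the correlations ran from −0.43 to 0.42, and these values do not decide whether samples were paired. With the replicate number as a block 0 genes were called, and Snai1 differed by 0.60 (adjusted p = 0.964). Non-overlap is not defined under the block, and Snai1 drops out when genes must exceed background everywhere. With 3 samples a group, intervals reached from 0.744-fold to 1.55-fold for Pdgfrb and from 0.422-fold to 2.92-fold for Col1a1.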
